A study of Mus musculus with 12 samples.

Results

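The peaks described here are all the accessible regions measured in inguinal white adipose tissue (iWAT) of cold-acclimated mice with and without BAF60a in their adipocytes. They are 39558 peaks of the 98116 peaks that the brown and inguinal tables hold together, and every peak of the inguinal table was kept. Both groups were C57BL/6 mice with floxed alleles of Smarcd1, the gene for BAF60a, aged 6 to 8 months at cold acclimation, and their chamber was brought down to 10 °C and held there for 7 days. The flox group had no further allele, while the AKO group also carried a Cre transgene driven by the adiponectin promoter, so that deletion is limited to adipocytes. The assay was ATAC-seq, in which a transposase cuts open DNA and attaches sequencing adapters to it. The inguinal pads of 6 mice of a genotype were pooled and minced, and 3 frozen aliquots of this 1 pool were sequenced per genotype. The aliquots are repeats of 1 pool, so every p-value below measures the spread between aliquots and not the spread between mice. The sex of the mice was not given in the sources used here. Because the pads hold many cell types, fewer nuclei of a type and less open chromatin per nucleus cannot be told apart.

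SWI/SNF complexes use the energy of ATP to slide or evict nucleosomes, and their BAF60 subunits, BAF60a, BAF60b and BAF60c, link the complexes to transcription factors. In fat, adipocyte genes are controlled by PPARγ, C/EBP and early B-cell factors, which bind to promoters and to distal elements inside or around their target genes. Cold induces beige adipocytes, which hold UCP1 and many mitochondria, within inguinal fat. A gene with several elements that open or close together can therefore be described by all the peaks assigned to it, which is how the genes below were chosen.

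For 7 of the peaks that carry the account that follows, the 200 bases around the centre are shown to let the motif matches and the base composition be seen (plus strand, 5′ to 3′, from the GRCm38/mm10 reference genome). Such a window runs past both ends of a narrower peak, as at Kif26a, whose peak is 104 bases wide. Capitals mark a match to 1 of 7 consensus motifs searched on both strands. The first 3 sequences belong to the falling peaks with the strongest support at Inpp5d, Cxcr4 and Dock2.

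Inpp5d, chr1:87620899-87621098: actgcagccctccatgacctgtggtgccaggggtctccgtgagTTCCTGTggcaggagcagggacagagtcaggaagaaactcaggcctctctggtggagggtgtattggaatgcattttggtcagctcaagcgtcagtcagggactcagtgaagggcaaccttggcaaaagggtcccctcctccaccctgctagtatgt
Cxcr4, chr1:128614538-128614737: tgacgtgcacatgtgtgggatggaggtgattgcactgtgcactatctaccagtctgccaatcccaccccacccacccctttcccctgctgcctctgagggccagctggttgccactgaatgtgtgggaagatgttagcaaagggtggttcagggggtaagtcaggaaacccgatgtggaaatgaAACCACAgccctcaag
Dock2, chr11:34681817-34682016: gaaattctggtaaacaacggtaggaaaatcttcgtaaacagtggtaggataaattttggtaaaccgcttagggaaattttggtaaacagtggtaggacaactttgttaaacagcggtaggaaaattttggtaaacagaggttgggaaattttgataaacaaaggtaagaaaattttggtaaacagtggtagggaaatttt

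The capitals are an ETS match in Inpp5d and a RUNX match in Cxcr4, while the Dock2 sequence held no match to the 7 motifs, has a GC content of 34.7% over its peak and is built of a short unit repeated many times, where the counts of reads placed by an aligner are less certain. The other 4 sequences belong to rising peaks at Mapt, Dysf and Kif26a. The Mapt and the first Dysf sequence are lead peaks, while the second Dysf sequence and that of Kif26a were chosen because they hold an EBF match. The lead windows of Zc3h12a, Lmf1, Mgll and Scarb1 held no match and are not shown.

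Mapt, chr11:104307244-104307443: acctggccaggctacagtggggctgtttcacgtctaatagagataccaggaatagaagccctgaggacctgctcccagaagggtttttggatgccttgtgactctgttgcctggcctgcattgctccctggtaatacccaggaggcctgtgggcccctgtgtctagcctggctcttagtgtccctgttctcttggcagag
Dysf, chr6:84140041-84140240: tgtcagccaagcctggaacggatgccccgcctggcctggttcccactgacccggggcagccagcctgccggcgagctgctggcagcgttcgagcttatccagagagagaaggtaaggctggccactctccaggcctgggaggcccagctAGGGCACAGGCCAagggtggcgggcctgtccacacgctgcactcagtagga
Dysf, chr6:84094641-84094840: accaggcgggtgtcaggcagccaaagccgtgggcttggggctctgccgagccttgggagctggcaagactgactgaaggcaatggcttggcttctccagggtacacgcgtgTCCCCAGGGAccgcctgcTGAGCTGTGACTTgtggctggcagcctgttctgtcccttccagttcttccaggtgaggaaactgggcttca
Kif26a, chr12:112169333-112169532: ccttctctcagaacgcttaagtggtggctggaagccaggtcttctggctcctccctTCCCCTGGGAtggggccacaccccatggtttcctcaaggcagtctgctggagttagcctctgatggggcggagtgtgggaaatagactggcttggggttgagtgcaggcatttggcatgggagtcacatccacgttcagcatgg

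In the first Dysf sequence the capitals are a match to the PPAR response element, in the second they are an EBF match followed by another match to the PPAR response element, and in Kif26a they are an EBF match, while the Mapt sequence held no match. The searched letters were a direct repeat of AGGTCA with 1 base between for the PPAR response element (up to 2 mismatches), TCCC and GGGA with 2 bases between for EBF, TTGCNNAA for C/EBP, TTGGC and GCCAA with 5 bases between for NF1 (up to 1 mismatch), TGANTCA for AP-1, TGTGGTT for RUNX and ACAGGAA for ETS. Over all 39558 windows, 1.2% held the EBF letters, against 0.602% of the windows of peaks called lower in AKO and 3.41% of those called higher, by the edgeR test described next. The RUNX letters stood in 3.52% of all windows, in 5.22% of those called lower and in 1.41% of those called higher. The ETS letters stood in 5.67% of all, 9.74% of lower and 5.41% of higher windows. For the PPAR response element the shares were 3.6%, 4.12% and 5.06%, for C/EBP 10.2%, 10.6% and 10.2%, for AP-1 7.89%, 9.04% and 7.76%, and for NF1 1.07%, 0.502% and 1.29%, in the same order. These shares describe letters in the windows, with no test, and a match is not a bound site.

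Reads in peaks ranged from 4066720 to 6691161 per aliquot, and the median peak held 62 to 98 reads. Values are given as normalized reads, the reads of a peak after division by the size factor of its aliquot. The first principal component, with 33.8% of the variance, placed all flox aliquots on one side and all AKO aliquots on the other. Flox aliquot 2 stood apart: its counts differed as much from the other flox aliquots (chi-square per peak 2.78 and 2.79) as from the AKO aliquots (2.58 to 2.87), while flox aliquots 1 and 3 differed from each other by 2.24. BAF60a itself had 1 peak, which does not test the deletion of an exon, and the peak held 249, 188 and 211 normalized reads in flox and 233, 229 and 229.9 in AKO. The genotypes overlapped there.

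The limma test planned for log2 of the normalized reads plus 1 called no peak at an adjusted p under 0.1, and its smallest adjusted p was 0.149. At an unadjusted p under 0.05 it gave 2934 lower peaks (7.42%) and 3009 higher peaks (7.61%). Reads summed over all peaks of a gene gave no call by limma either, with 7.56% of the 15963 genes lower and 7.37% higher at an unadjusted p under 0.05. The quasi-likelihood test of edgeR on the recovered reads called 996 peaks lower (2.52%) and 850 higher (2.15%) at the same threshold, and DESeq2 called 225 lower (0.569%) and 195 higher (0.493%), every one of which was also called by edgeR, while limma with a trend called 792 lower (2.0%) and 648 higher (1.64%). In what follows, fell and rose mean called by edgeR. The median log2 difference between AKO and flox over all peaks was -0.00089, and the median edgeR log2 fold was -0.7 among the peaks that fell and 0.702 among those that rose. Without flox aliquot 2, edgeR called 1686 peaks lower and 1362 higher, and leaving out any other aliquot gave 231 to 557 lower and 144 to 443 higher. Without flox aliquot 1 the counts were the smallest, 231 and 144. A call that held in all 6 of these fits is said to be kept, and for most other calls the aliquots without which they were lost, or the number of fits in which they held, are given. By place, 2.08% of the peaks at start sites fell and 1.66% rose, against 2.48% and 2.62% of the other peaks inside genes, 2.94% and 2.05% of peaks upstream, and 2.52% and 2.16% of peaks downstream.

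Genes were called concordant when they had at least 3 peaks, at least 3 of them counted in 1 direction, none counted in the other and at least 75% of all their peaks of that sign. Since limma called none, a peak was counted when its unadjusted limma p was under 0.05 and the aliquots of the genotypes did not overlap, which 6.41% of all peaks met as lower and 6.61% as higher. Of all peaks, 50.1% were lower and 49.9% higher in AKO by sign alone, and 10.3% were lower and 10.6% higher without overlap. Of the 4950 genes with at least 3 peaks, 23 were falling (22 without Car3) and 29 were rising. The 22 falling genes had 162 peaks, of which 138 were lower in AKO, 69 were counted, 29 fell and 12 were also called by DESeq2. The 29 rising genes had 250 peaks, of which 213 were higher in AKO, 100 were counted, 45 rose and 12 were also called by DESeq2. These genes were chosen on these values, so that the shares describe the choice. A larger median over all peaks, or more counted peaks, decided which concordant genes are named.

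**Figure D1:**
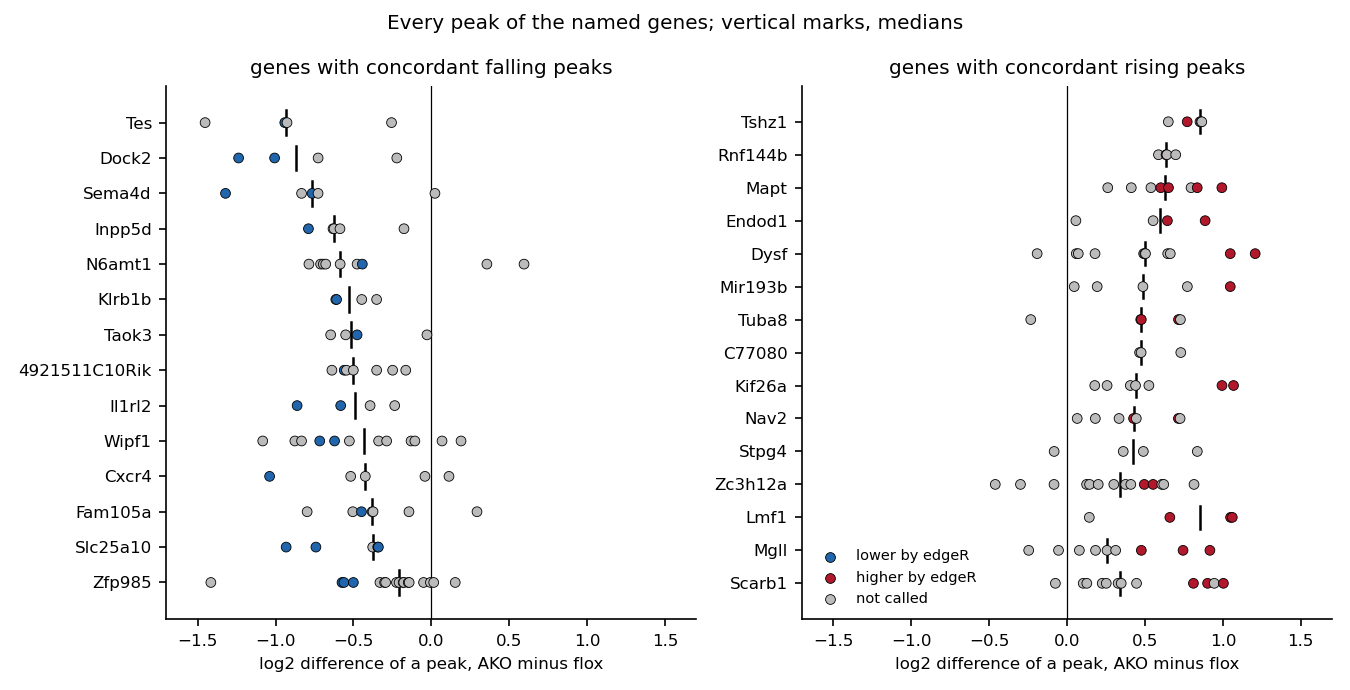
Log2 difference (AKO minus flox, horizontal axis, no unit) of every peak of the named falling genes (left) and rising genes (right), 1 point per peak, with a vertical mark at the median of each gene. Blue points fell and red points rose by edgeR, grey points were not called, and 4 of the 5 Slc25a10 peaks and 4 of the 8 Mapt peaks are coloured. Of the rising genes, 1 is not plotted.

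Among the falling genes described here, Slc25a10 had the most peaks called. It codes for the mitochondrial dicarboxylate carrier, which exchanges malate and succinate for phosphate. All 5 of its peaks were lower in AKO, 4 fell and 3 of these were also called by DESeq2. The upstream peak held 121, 108 and 111 normalized reads in flox and 61.1, 54.8 and 61.0 in AKO, with no overlap (log2 difference -0.93 ± 0.13, SE; edgeR adjusted p = 0.00207). The peak over the start site held 587, 514 and 558 in flox and 416, 467 and 427 in AKO (-0.34 ± 0.13; edgeR adjusted p = 0.0218). The peak in exon 10 held 422, 400.3 and 502 in flox and 364, 369 and 308 in AKO (-0.34 ± 0.15; edgeR adjusted p = 0.0352). The genotypes did not overlap at these peaks. The peak at 8958 bases from the start site, behind the gene, held 280.1, 167 and 274 in flox and 128, 145 and 147 in AKO, with flox aliquot 2 nearest to AKO (-0.74 ± 0.22; edgeR adjusted p = 0.000275). Summed over the 5 peaks, Slc25a10 had 1436, 1217 and 1481 normalized reads in flox against 992, 1073 and 956 in AKO (edgeR adjusted p = 1.05e-05). The sum and the peaks upstream and behind the gene kept their calls, while the start-site peak lost its call without flox 1 or AKO 1 and the exon 10 peak without flox 3 or AKO 3 (adjusted p up to 0.263). The upstream and start-site peaks also overlap an antisense gene, Gm11788, and reads in ATAC-seq carry no strand, so that the peaks cannot be given to 1 of these genes. Applied to edgeR calls in place of counted peaks, the limits for a concordant gene were met by Slc25a10 in the falling direction whichever aliquot was left out, and by no other falling gene in all 6 fits.

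Dock2, Inpp5d and Cxcr4, genes best known from blood cells, each had a falling peak called also by DESeq2. Dock2 activates the GTPase Rac in leukocytes. Its peak in intron 22, the repeat shown above, held 82.0, 64.5 and 121 normalized reads in flox and 35.7, 32.0 and 40.6 in AKO (log2 difference -1.24 ± 0.24; edgeR adjusted p = 0.000366). Its start-site peak held 30.7, 61.2 and 24.1 in flox and 21.9, 13.7 and 17.1 in AKO (-1.01 ± 0.34; edgeR adjusted p = 0.0794). The first call was kept, and the second was lost in every fit but the one without flox 3 (adjusted p up to 0.372). The genotypes did not overlap in either peak, and the flox aliquots spread more widely than the AKO aliquots. All 4 peaks of Dock2 were lower in AKO, and their sum was 213, 249 and 282 in flox against 156, 134 and 149 in AKO (edgeR adjusted p = 0.00018).

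Inpp5d codes for SHIP1, a phosphatase that removes a phosphate from the lipid messenger PIP3 and damps signalling in blood cells. Its broad start-site peak at chr1:87620214-87621782 held 149, 163 and 175 normalized reads in flox and 95.7, 94.8 and 89.8 in AKO (log2 difference -0.79 ± 0.13; edgeR adjusted p = 0.00181). All of its 5 peaks were lower in AKO, 3 were counted and 1 fell. Cxcr4 is the receptor of the chemokine CXCL12, which retains leukocytes in tissues. Its peak at -22347 bases from the start site, chr1:128613929-128615346, held 188, 169 and 199.7 normalized reads in flox and 109.5, 77.6 and 84.5 in AKO (-1.04 ± 0.17; edgeR adjusted p = 1.26e-05). Both this call and that at the start of Inpp5d were kept, and of the 5 Cxcr4 peaks this distal one had the largest difference. The peak at -496 bases from the start held 96.9, 109 and 116 in flox and 78.4, 82.2 and 64.2 in AKO, without overlap and not called (edgeR adjusted p = 0.119).

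The interleukin receptor Il1rl2, the natural killer cell receptor Klrb1b and the ligand Sema4d were also among the falling genes. Il1rl2 binds interleukin-36. Its intron 8 peak held 160.4, 161 and 133 normalized reads in flox and 66.9, 81.1 and 104 in AKO (log2 difference -0.86 ± 0.19; edgeR adjusted p = 0.00188), and its intron 1 peak also fell (edgeR adjusted p = 0.0978). The first call was kept, and the second was lost in every fit but the one without flox 3. All 4 of its peaks were lower in AKO. Klrb1b is inhibitory. Its 4 peaks were all lower in AKO, and the 1 that fell held 193, 115 and 203 normalized reads in flox and 113, 109.6 and 102 in AKO (-0.61 ± 0.23; edgeR adjusted p = 0.0124), a call lost without flox 1 or flox 3 (adjusted p up to 0.135). All 4 peaks lie upstream in a cluster of similar receptor genes, and 3 of them, not the one that fell, lie over long noncoding RNAs or BC035044, so that their gene is uncertain. Sema4d, a semaphorin that binds plexin receptors, fell at 2 intronic peaks. The peak in intron 1 held 19.96, 32.2 and 36.2 in flox and 9.22, 16.0 and 8.55 in AKO (-1.32 ± 0.29; edgeR adjusted p = 0.0541), a call lost without flox 3, AKO 1 or AKO 3 (adjusted p up to 0.22), and the call in intron 2 was lost in every fit but the one without flox 1.

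The rule also named 6 more falling genes. Wipf1, which binds the actin regulator WASP, had the most counted peaks, 5 of 12, and 2 of them fell. The peak of Wipf1 at 66230 bases from its start, in intron 1, held 163, 123 and 163 normalized reads in flox and 86.5, 109.6 and 77.0 in AKO (log2 difference -0.72 ± 0.19; edgeR adjusted p = 0.00822), a call that was kept, while the other was lost in all 6 fits (adjusted p up to 0.25). Tes, a scaffold protein of focal adhesions, had the most negative median of the named genes, -0.93 over 4 peaks. Its downstream peak held 67.7, 62.3 and 61.1 in flox and 24.2, 43.4 and 33.2 in AKO (-0.94 ± 0.21; edgeR adjusted p = 0.0314), and this call was lost without flox 1 or AKO 1 (adjusted p up to 0.185). Taok3, a kinase of the MAP kinase pathway, fell at 1 of 4 peaks, and 4921511C10Rik at 1 of 7, which lie within Rapgef2. N6amt1, a methyltransferase that modifies a translation release factor, had 7 of 9 peaks lower, but these reach as far as -709026 bases from its start. Fam105a fell at 1 of 7 peaks, of which 5 lie within Trio, and its summed reads overlapped between genotypes. The single calls of these 4 genes each held in only 1 to 3 of the 6 fits with an aliquot left out (adjusted p up to 0.172 for 4921511C10Rik, 0.234 for Taok3, 0.309 for N6amt1 and 0.316 for Fam105a).

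The sums of the falling genes named by the rule add the reads of the peaks by which these genes were chosen. Their count of calls therefore follows from the choice and is no separate support. By summed reads, 11 of these 12 genes were called lower by edgeR and 10 by DESeq2, against 3.43% and 1.15% of all 15963 genes, and Fam105a was the exception (edgeR adjusted p = 0.273). For 8 of these 11 the call held whichever aliquot was left out (Dock2, Sema4d, Inpp5d, Klrb1b, 4921511C10Rik, Il1rl2, Wipf1 and Cxcr4), while Tes lost it without AKO 1 or AKO 3, N6amt1 without flox 3, AKO 2 or AKO 3, and Taok3 in 4 of 6 fits (adjusted p up to 0.153, 0.155 and 0.398). Lymphocyte markers moved in the same direction in part: 3 of their 15 peaks fell, 2 at Ptprc and 1 at Bcl11b, and none rose. Ptprc codes for CD45, the phosphatase on all leukocytes, and its 2 peaks summed to 129.7, 136 and 121 normalized reads in flox and 78.4, 71.9 and 60.9 in AKO (log2 difference -0.87 ± 0.11; edgeR adjusted p = 0.00222). This sum kept its call, while the 3 falling peaks of the list held their calls in 2 or 3 of 6 fits (adjusted p up to 0.321). Over the whole lymphocyte list, whose 6 genes with peaks include Cd3d, Cd2, Ptprc, Ikzf1 and Bcl11b, the sum ranged from 1069.9 to 1125 in flox and from 942 to 1094 in AKO. The 8 others, among them Cd3e, Cd4, Cd8a, Cd79a and Ms4a1, had no peak assigned. Of 12 macrophage markers, 5 had no peak assigned, among them Cd68, Mrc1 and Lyz2. None of the 13 peaks of the other 7 was called, and their sums overlapped, at 1029 to 1037 in flox and 967 to 1044 in AKO. The part of leukocyte number in the falling peaks was not tested.

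**Figure D2:**
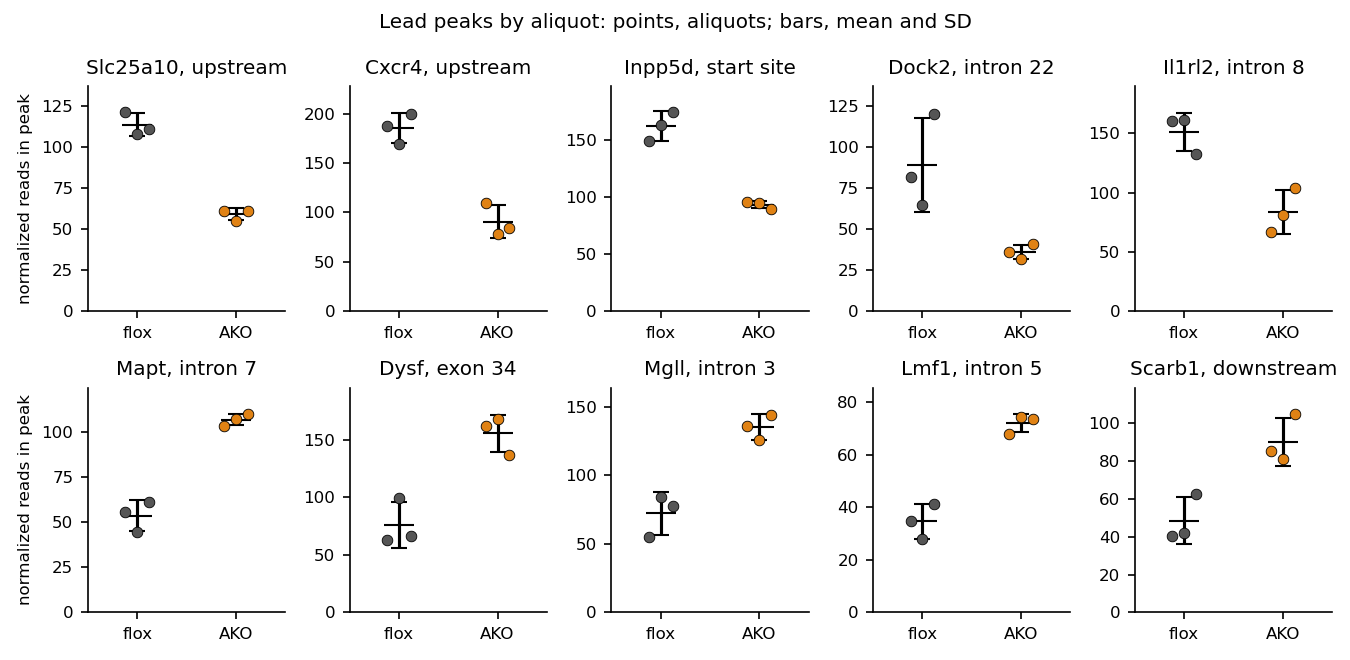
Normalized reads (vertical axis, from 0) in each of 3 flox (grey) and 3 AKO (orange) aliquots at 10 peaks, falling in the top row and rising in the bottom row, with bars for the mean and SD. In every panel the aliquots of the genotypes do not overlap, and at Cxcr4 flox holds 169 to 199.7 and AKO 77.6 to 109.5 normalized reads.

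Zfp985, a zinc finger gene, was the third falling gene to meet the limits with edgeR calls, beside Car3 and Slc25a10, a set looked for after the values were seen. In all, 17 genes had at least 3 peaks called by edgeR in either direction, of which 3 falling and 4 rising genes met the limits on sign, and Gm2447 and Irf2bp2 (3 falls each), Atxn7l1 and Ptp4a3 (3 rises each) and Pmepa1 (5 rises) had calls in 1 direction but under 75% of their peaks of that sign. Of its 17 peaks, 15 were lower, but only 1 was counted and none was called by DESeq2. Its 3 calls each were lost without 2 to 4 of the 6 aliquots (adjusted p up to 0.373). Most of these peaks lie over the long noncoding RNAs C230088H06Rik and Gm26624 in a cluster of near-identical zinc finger genes, where reads may be shared between copies. The sum over its peaks was 2259.7, 2330.4 and 3057 in flox and 2446, 2035 and 1957 in AKO, with overlap.

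Among the rising genes, Mapt had the strongest support. It codes for tau, a protein that stabilizes microtubules. All 8 of its peaks were higher in AKO, 4 rose and 2 of these were also called by DESeq2. The peak in intron 7 at chr11:104307174-104307512 held 55.6, 44.5 and 61.1 normalized reads in flox and 104, 107 and 110.1 in AKO (log2 difference 0.99 ± 0.15; edgeR adjusted p = 0.00195). The start-site peak held 173, 199 and 159 in flox and 247, 271 and 288 in AKO (0.60 ± 0.14; edgeR adjusted p = 0.00172). Neither peak overlapped between genotypes, and the peaks in intron 1 and intron 5 also rose (edgeR adjusted p = 0.0556 and 0.0492). The first 2 calls and that of the sum were kept, and the other 2 each held in 2 of 6 fits (adjusted p up to 0.326). Summed over its peaks, Mapt had 459.8, 501 and 447 normalized reads in flox and 707, 751 and 726 in AKO (0.63 ± 0.08; edgeR adjusted p = 3.04e-08).

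Dysf codes for dysferlin, which reseals torn membranes in muscle and other cells. Of its 11 peaks 10 were higher in AKO, 6 were counted and 2 rose, both shown above. The peak in exon 34 held 62.7, 98.95 and 66.3 normalized reads in flox and 161, 168 and 137 in AKO (log2 difference 1.05 ± 0.20; edgeR adjusted p = 7.32e-05). The peak in intron 17 held 22.8, 26.7 and 8.61 in flox and 41.5, 30.8 and 56.7 in AKO (1.21 ± 0.41; edgeR adjusted p = 0.0431). The first call was kept, and the second was lost without flox 1, flox 3, AKO 1 or AKO 3 (adjusted p up to 0.253). Both peaks lay apart between genotypes, the second at few reads. The 4 skeletal muscle markers with a peak had no called peak and overlapping sums, at 209 to 280 in flox and 226 to 258 in AKO, while 8 further markers of that list had no peak assigned.

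Mgll, Lmf1 and Scarb1 are rising genes of lipid handling. Mgll codes for monoacylglycerol lipase, which completes the breakdown of triglycerides. Its peak in intron 3 at chr6:88776568-88776938 held 54.9, 84.5 and 77.5 normalized reads in flox and 136, 126 and 144 in AKO (log2 difference 0.92 ± 0.19; edgeR adjusted p = 0.00129). The first intron 2 peak held 177, 169 and 174 in flox and 267, 233 and 226 in AKO (0.48 ± 0.13; edgeR adjusted p = 0.0224), and the second held 85.5, 84.5 and 70.6 in flox and 152, 135 and 119 in AKO (0.74 ± 0.15; edgeR adjusted p = 0.00885). Other peaks inside the gene were higher in AKO but not called, with log2 differences of 0.08 to 0.31 (edgeR adjusted p of 0.267 to 0.834). The 3 peaks of Mgll that rose all lay inside the gene body, while its start-site peak had a log2 difference of -0.06 (edgeR adjusted p = 0.917). DESeq2 called the same 3 peaks, and edgeR kept them, except the first intron 2 peak without AKO 1 (adjusted p = 0.166). Lmf1, which matures lipoprotein lipase, rose at 3 peaks in intron 5. The middle one held 34.9, 27.8 and 41.3 in flox and 68.0, 74.2 and 73.8 in AKO (1.05 ± 0.17; edgeR adjusted p = 0.00937), and this call was kept, while the outer 2 were lost without 2 and 4 of the 6 aliquots (adjusted p up to 0.224 and 0.343). Scarb1, the receptor for high-density lipoprotein, rose at 3 of 12 peaks. The downstream one held 40.6, 42.2 and 62.8 in flox and 85.3, 81.1 and 105 in AKO (0.90 ± 0.20; edgeR adjusted p = 0.0132), a call lost without flox 1 (adjusted p = 0.135), while the other 2 each held in 2 of 6 fits. Lmf1, Mgll and Scarb1, with Mapt, were the 4 rising genes to meet the limits for a concordant gene with edgeR calls, a set looked for after the values were seen. Mgll kept 3 such peaks in 5 of the 6 fits with an aliquot left out, and Mapt in 3.

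Of the other rising genes, Tshz1 codes for a zinc finger transcription factor and had the largest median among those named by the rule, 0.85 over 5 peaks, all higher. These peaks reach as far as 309772 bases behind its start. The farthest one, whose value is the median, had a flox mean of 10.9 normalized reads and overlapped between genotypes. Another, at 246526 bases, had a flox mean of 17.5. The summed reads of Tshz1 were 118, 142 and 124 in flox and 182, 241 and 233 in AKO (edgeR adjusted p = 0.000288). Rnf144b, a ubiquitin ligase, was higher at all 4 peaks, each without overlap, and its sum was 153, 149 and 164 in flox and 250.1, 250.0 and 229.9 in AKO (edgeR adjusted p = 0.00109). The 3 AKO aliquots of both genes lay well above those of flox. Kif26a, a member of the kinesin family, rose at 2 of 7 peaks, and its intron 5 peak with the EBF match held 18.5, 17.8 and 12.1 in flox and 34.6, 34.3 and 34.2 in AKO (log2 difference 1.07 ± 0.18; edgeR adjusted p = 0.0846). Nav2, a cytoskeletal protein of growing neurites, rose at 2 of 7 peaks, and the one just before its start held 188, 241 and 195 in flox and 264, 265 and 308 in AKO (0.43 ± 0.15; edgeR adjusted p = 0.0282). Tuba8, an alpha tubulin, rose at 2 of 5 peaks, one over its start site with 102, 101 and 105 in flox and 130.2, 159.8 and 141 in AKO (0.48 ± 0.13; edgeR adjusted p = 0.0847). The single peaks of these 5 genes kept no edgeR call in all 6 fits: that at -752 bases of Nav2 was lost without flox 1, flox 3 or AKO 3 (adjusted p up to 0.218), and those of Kif26a and Tuba8 given here held in 1 fit each (adjusted p up to 0.259 and 0.29).

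Zc3h12a codes for the ribonuclease Regnase-1, which degrades messenger RNAs of cytokines. It had 14 peaks, 11 of them higher, and rose at 2, the one also called by DESeq2 at -80830 bases from the start with 118, 108 and 105 normalized reads in flox and 155, 180.4 and 152 in AKO (log2 difference 0.55 ± 0.14; edgeR adjusted p = 0.0322), a call lost without flox 3 or AKO 2 (adjusted p up to 0.175). Mir193b, a microRNA gene, rose at 1 of 5 peaks, and Endod1 at 2 of 4, each held in 1 or 2 of 6 fits. The Mir193b peaks lie within the noncoding gene Gm15738. C77080 and Stpg4 had 3 counted peaks each and none called by edgeR, although their sums were called (edgeR adjusted p = 0.0263 and 0.0265). Sums over the rising genes named by the rule also reuse the peaks that chose them, so their calls are no separate support. By summed reads, all 13 rising genes named by the rule were called higher by edgeR and 11 by DESeq2, against 2.94% and 1.13% of all genes. The edgeR call held whichever aliquot was left out for 8 of them (among them Tshz1, Rnf144b, Mapt, Dysf, Tuba8, Kif26a and Nav2), while Endod1 and Mir193b lost it without flox 1, AKO 2 or AKO 3, C77080 and Stpg4 without flox 1 or AKO 1, and Zc3h12a in 4 of 6 fits (adjusted p up to 0.202, 0.271, 0.207, 0.216 and 0.266).

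**Figure D3:**
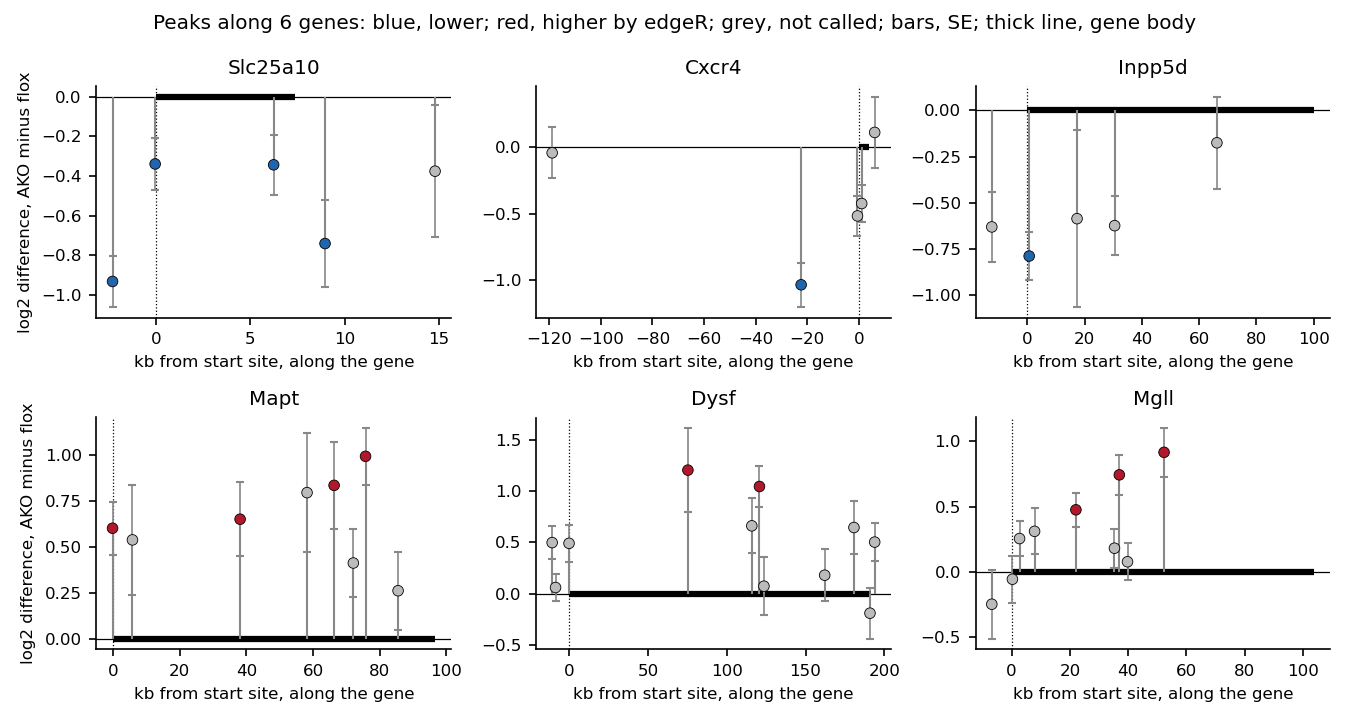
Log2 difference (AKO minus flox, vertical axis, bars for the SE) of every peak of 6 genes against its distance in kb from the start site, read along the gene (horizontal axis, thick line for the gene body). The 4 called peaks of Slc25a10 stand before, over and behind the gene, while the 3 called peaks of Mgll stand inside it.

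The other concordant genes are given by name. In the falling set these were Asap1, Dusp6, Ets1, Habp2, Lhfpl2, Lifr, Nxt1, Slc15a1 and Zfp982, with medians of -0.35 to -0.13. Of these 9 genes, Ets1, Lhfpl2 and Slc15a1 had no peak called by edgeR, and the summed reads of 3 were called (Dusp6, Habp2 and Zfp982). For Ets1 and Lifr the sums overlapped between genotypes (edgeR adjusted p = 0.688 and 0.621). In the rising set they were 4930474N09Rik, Aacs, Acacb, Afap1l2, Ldlrad3, Mir6346, Ntrk2, Ppargc1b, Ppp1r12b, Prkag2, Sccpdh, Smad6, Tbc1d2 and Tspan9, with medians of 0.10 to 0.42. Of these 14 genes, Ldlrad3, Ppp1r12b and Sccpdh had no peak called by edgeR, and the summed reads of 9 were called. The peaks of 4930474N09Rik lie within Foxn3. Acacb codes for the acetyl-CoA carboxylase at mitochondria and Ppargc1b for the coactivator PGC-1β, and both stood in the gene lists described next.

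In all, 11 lists of fat genes and 9 lists of cell type markers were counted against the shares of all peaks that fell (2.52%) and rose (2.15%). The thermogenic list had 24 genes with 77 peaks, of which 51 were higher in AKO, 8 rose and 1 fell, with a median log2 difference of 0.15. Besides Cidea, the peaks that rose belong to Ppara, Ppargc1b, Kcnk3, Fabp3, Pdk4 and Letmd1. Ppara is the receptor that drives fatty acid oxidation, and its start-site peak held 348, 405 and 379.6 normalized reads in flox and 451, 523 and 463 in AKO (0.34 ± 0.14; edgeR adjusted p = 0.0265). Kcnk3, a potassium channel of thermogenic adipocytes, held 257, 258 and 284 in flox and 359.6, 424 and 296 in AKO at its start site (0.42 ± 0.16; edgeR adjusted p = 0.0179). The Ppargc1b peak in intron 1 held 51.3, 45.6 and 57.7 in flox and 81.8, 85.6 and 94.1 in AKO (0.75 ± 0.14; edgeR adjusted p = 0.0348). The aliquots of the genotypes did not overlap in these 3 peaks. The peak that fell belongs to Ppargc1a, the related coactivator PGC-1α, in its intron 1, with 119.8, 87.8 and 145 in flox and 83.0, 77.6 and 69.5 in AKO (-0.58 ± 0.20; edgeR adjusted p = 0.0487). Left-out aliquots changed these calls: those of Kcnk3 and Ppara were lost without flox 1 or AKO 2, that of Ppargc1b without flox 1 or AKO 3 (adjusted p up to 0.227, 0.212 and 0.152), and that of Ppargc1a held in 1 of 6 fits (adjusted p up to 0.301). The call at Fabp3 held in none of the 6, that at Letmd1 in 2 and that at Pdk4 in 4, while those of the 2 Cidea peaks held in 1 and in none (adjusted p up to 0.181 and 0.284). Summed over a gene, Cidea, Ppara, Kcnk3, Fabp3 and Bmp8b were called higher and none lower, with Cidea and Ppara kept, and Kcnk3 lost without AKO 2, Fabp3 without flox 1 or AKO 3, and Bmp8b without flox 1, AKO 1 or AKO 2. The sum over the whole list ran from 7538 to 8142 in flox and from 8256 to 8749 in AKO.

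**Figure D4:**
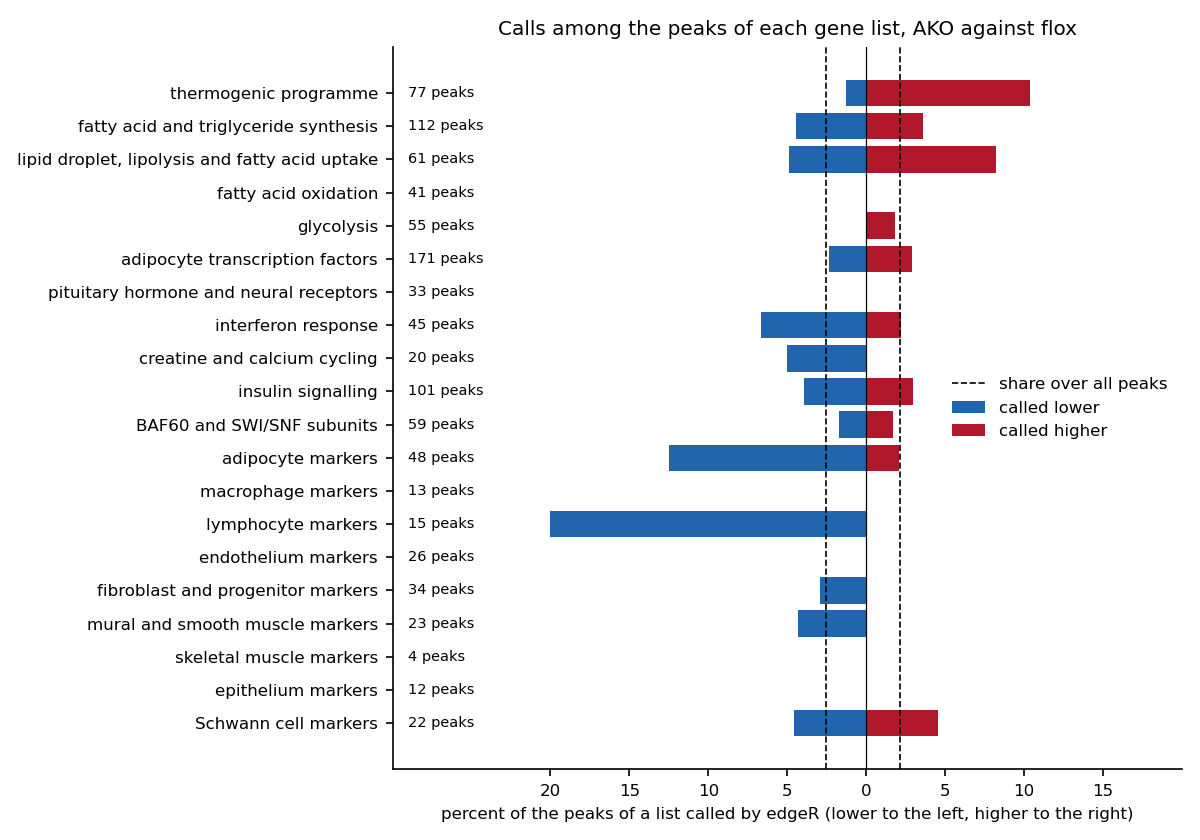
Percent of the peaks of each gene list that edgeR called lower (blue, to the left) or higher (red, to the right), with the number of peaks of each list and dashed lines at the shares over all peaks, 2.52% lower and 2.15% higher. The thermogenic list reaches right with 8 of 77 peaks, while the adipocyte and lymphocyte markers reach left with 6 of 48 and 3 of 15 peaks.

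Genes of fatty acid and triglyceride synthesis moved in both directions, with 5 of 112 peaks falling, 4 rising and a median of -0.03. Scd1, the desaturase that makes oleate, fell at 2 peaks. The one in exon 6 held 379, 279 and 509 normalized reads in flox and 179.8, 238 and 195 in AKO (log2 difference -0.89 ± 0.23; edgeR adjusted p = 1.63e-07; DESeq2 adjusted p = 0.0874), and this call was kept, while the start-site call was lost without flox 1 or AKO 2 (adjusted p up to 0.223). Another Scd1 peak, at -38204 bases from the start, was higher without overlap and not called (0.49 ± 0.16; edgeR adjusted p = 0.178). Acacb, which makes the malonyl-CoA that blocks fatty acid entry into mitochondria, rose at 2 peaks of intron 2. Its 4 peaks were all higher and summed to 682, 696 and 798 in flox and 899, 924 and 943 in AKO (0.35 ± 0.09; edgeR adjusted p = 0.0021), a sum that kept its call while its 2 peaks held theirs in 2 and 3 of 6 fits. The genotypes did not overlap in these values. Elovl6, Gpam and Pck1 fell at 1 peak each, and Srebf1 and Slc25a1 rose at 1 each. The Elovl6 and Pck1 peaks that fell overlapped between genotypes. Another Pck1 peak was higher without overlap and not called (0.75 ± 0.19; edgeR adjusted p = 0.103). For lipid droplets, lipolysis and uptake, 3 of 61 peaks fell (Fabp4 at 2, Lipe at 1) and 5 rose (Mgll at 3, Plin2 and Plin4 at 1), with a median of 0.01. Lipe codes for hormone-sensitive lipase, and its intron 1 peak held 1077, 871.7 and 1067 in flox and 808, 819.7 and 742 in AKO (-0.34 ± 0.14; edgeR adjusted p = 0.00588), and this call was kept. The single calls at Elovl6, Gpam, Pck1, Srebf1, Slc25a1, Plin2 and Plin4 held in 0 to 3 of 6 fits.

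Among 171 peaks of adipocyte transcription factors 4 fell and 5 rose. Cebpa, a driver of adipocyte differentiation, was lower at all 5 peaks and fell at 2 behind the gene, while Klf9 and Zfp423 fell at 1 and Pparg, Ebf1, Klf5, Srebf1 and Zfp423 rose at 1. The Cebpa peak at 4351 bases from the start held 433, 369 and 511 normalized reads in flox and 333, 391 and 293 in AKO, with overlap (log2 difference -0.37 ± 0.18; edgeR adjusted p = 0.0294). The Ebf1 peak in intron 5 held 14.97, 25.6 and 23.2 in flox and 40.3, 50.2 and 37.4 in AKO (0.99 ± 0.22; edgeR adjusted p = 0.0657). The calls of this list held in 1 to 3 of 6 fits, except that at Klf9, which was lost without flox 1 or AKO 1 (adjusted p up to 0.236). In the interferon list, Ddx58, the RNA sensor RIG-I, was the one gene beside Ifi27l2a with single peaks called by edgeR, while the summed reads of Ifit1 were also called lower (edgeR adjusted p = 0.0673; held in 1 of 6 fits). The Ddx58 start-site peak held 134, 130.1 and 157 in flox and 73.8, 85.6 and 74.9 in AKO (-0.84 ± 0.14; edgeR adjusted p = 0.00212), a call that was kept, and a downstream peak rose (edgeR adjusted p = 0.0846) in this fit and in 1 of 6 with an aliquot left out. Of 45 peaks of that list 3 fell and 1 rose, and the sum over it ran from 5074 to 5487 in flox and from 4795 to 5034 in AKO. Insulin signalling had 4 of 101 peaks falling (among them Foxo1 and Pik3r1 at 1 each) and 3 rising (Akt1, Akt2 and Grb14). The intron 1 peak of Akt2, the main insulin-responsive form of this kinase in fat, held 199, 206 and 181 in flox and 246, 292 and 278 in AKO (0.48 ± 0.14; edgeR adjusted p = 0.0149), a call lost without AKO 2 (adjusted p = 0.106), and the other calls of the list held in 1 to 5 of 6 fits.

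The other lists held few calls. No peak of 41 in fatty acid oxidation or of 33 in pituitary hormone and neural receptors was called by edgeR or DESeq2. At an unadjusted limma p under 0.05 without overlap the counts were 1 lower and 3 higher, and 1 lower and 1 higher. The summed reads of Eci1, of fatty acid oxidation, were called higher by edgeR, a call held in 2 of 6 fits with an aliquot left out (adjusted p up to 0.253). Glycolysis had 1 rise in 55 peaks (Hk2), creatine and calcium cycling 1 fall in 20 (Ckb), and the BAF60 and SWI/SNF subunits 1 fall (Arid1a) and 1 rise (Dpf3) in 59. For the BAF60 paralogs Smarcd2 and Smarcd3, summed reads did not pass the test (edgeR adjusted p = 0.524 and 0.854). Adipocyte markers fell at 6 of 48 peaks and rose at 1, with a list sum of 7635 to 9205 in flox and 7028 to 8052 in AKO. The falls were at Fabp4 and Cebpa (2 each), Lipe and Cfd, and the rise was at Pparg. Cfd, the adipokine adipsin, had 1322, 1146 and 1335 normalized reads in flox and 682, 714 and 608 in AKO at a peak 6400 bases from its start (log2 difference -0.92 ± 0.14; edgeR adjusted p = 5.9e-16), and this call was kept. The peak lies within the neighbouring gene Med16. Adipoq, Plin1, Lep and Retn had peaks and none was called. Fibroblast markers fell at 1 of 34 peaks (Col3a1), mural and smooth muscle markers at 1 of 23 (Acta2), Schwann cell markers fell and rose at 1 of 22 (both Mbp), and the 26 peaks of endothelial, 12 of epithelial and 4 of skeletal muscle markers held no edgeR call. No peak was assigned to 3 of 12 endothelial, 5 of 9 epithelial and 8 of 12 skeletal muscle markers. The summed reads of the endothelial marker Egfl7 were called higher by edgeR, which held in 2 of 6 fits with an aliquot left out. The calls at Hk2, Ckb, Arid1a, Dpf3, Col3a1, Acta2 and Mbp held in 0 to 3 of the 6 fits with an aliquot left out.

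Genes around Adipoq were kept apart because its promoter drives the Cre transgene. Within 300 kb of its start, 19 peaks were measured, of which 5 rose and none fell. Eif4a2, a translation initiation factor, rose over its start site, with 292, 251 and 287 normalized reads in flox and 418, 461 and 429 in AKO (log2 difference 0.66 ± 0.13; edgeR adjusted p = 1.26e-05), and at an upstream peak. Rfc4, a subunit of the clamp loader of DNA replication, rose at its start site from 189, 128 and 223 in flox to 287, 259 and 244 in AKO (edgeR adjusted p = 0.0133). The start-site call of Eif4a2 was kept, its upstream call was lost without flox 1 (adjusted p = 0.115) and that of Rfc4 without AKO 1 (adjusted p = 0.126). Single peaks of Kng1 and St6gal1 also rose, and held in 4 and 3 of 6 fits. In brown fat, 14 of the 32 peaks of the genes near Adipoq were higher in AKO without overlap, 43.8% against 8.77% of all brown fat peaks. Extra copies of such DNA carried by the transgene and more open chromatin cannot be told apart.

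The same genes were set beside brown fat, where 3 flox and 3 AKO mice were measured 1 by 1. The study's methods do not describe these mice as cold-acclimated and give no age for them. The brown fat values were normalized on their own, so no test was run between the tissues. Reads in peaks ranged from 6336670 to 27500738 per brown fat sample. The study fitted brown fat with the first principal component as a covariate, which the brown fat values given here do not include. The 12 falling genes named by the rule had 68 peaks in brown fat, of which 39.7% were lower in AKO, against 51.7% of all brown fat peaks. Without overlap, 11.8% were lower and 13.2% higher, against 8.84% and 8.77%. The 13 rising genes had 142 peaks there, of which 41.5% were lower, with 5.63% lower and 14.1% higher without overlap. At the upstream peak of Slc25a10, brown fat held 168, 155 and 162 normalized reads in flox and 116, 104 and 131 in AKO (log2 difference -0.47), lower without overlap in both tissues. At the Cxcr4 peak, by contrast, brown fat held 221, 237 and 252 in flox and 234, 259 and 210 in AKO (-0.02), with overlap. The intron 7 peak of Mapt held 1200, 950.3 and 871 in flox and 994, 589 and 904 in AKO (-0.30), and the intron 3 peak of Mgll held 449, 426 and 338 in flox and 427, 361 and 409 in AKO (-0.01). Both overlapped in brown fat, where they held more reads than in iWAT. In the thermogenic list, 77.3% of 198 brown fat peaks were lower in AKO and 29.8% were lower without overlap, beside 26 lower of 77 in iWAT.

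**Figure D5:**
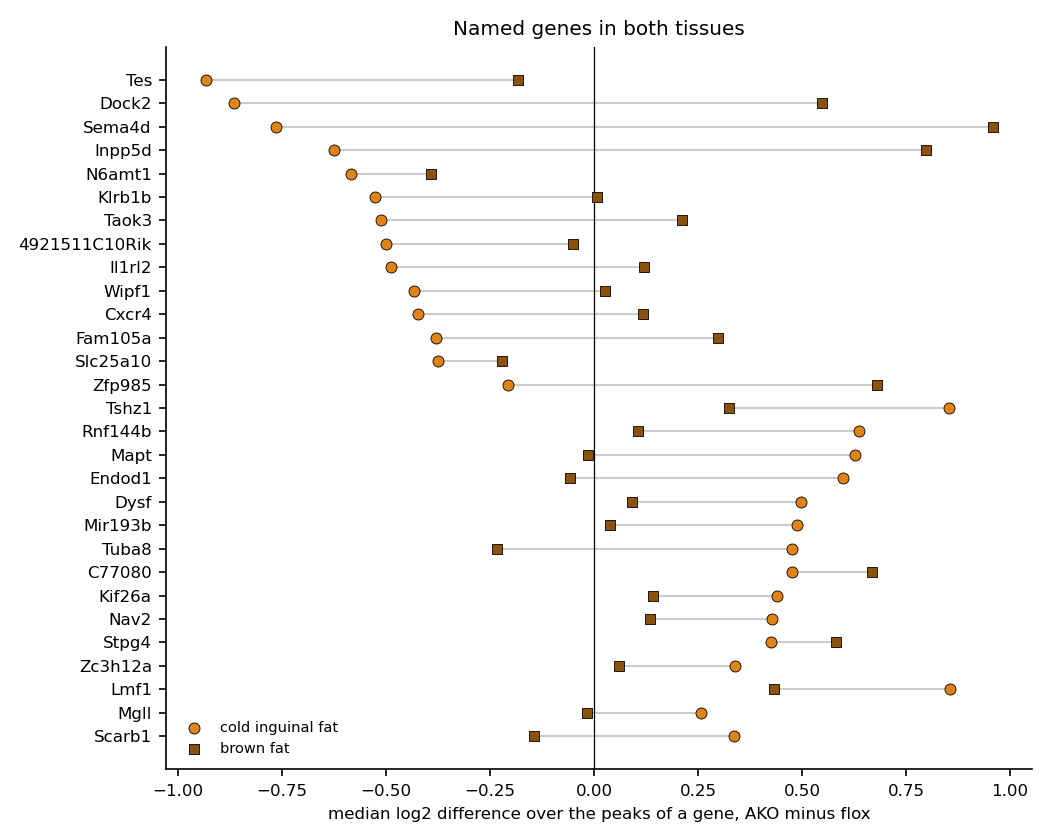
Median log2 difference (AKO minus flox, horizontal axis) over the peaks of each named gene in cold-acclimated inguinal fat (orange circles) and in brown fat (brown squares), joined by a line, with falling genes above rising genes and 1 rising gene not plotted. Slc25a10, Tes and N6amt1 lie left of 0 in both tissues, while Dock2, Sema4d and Inpp5d lie left of 0 in inguinal fat and right of it in brown fat. In brown fat Dock2, Sema4d and Inpp5d had only 2, 2 and 4 peaks, of which 0, 1 and 1 were higher without overlap.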

How the data were processed

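ATAC-seq was read from 3 aliquots of 1 inguinal fat pool per genotype, grouped by their labels. The authors mapped reads of 38 bases to mm10 with BWA 0.7.17-r1188, removed duplicates with Picard 2.8.14, kept a mapping quality of at least 30, called peaks per sample with MACS2 2.1.1.20160309 and retained those called in 2 or more of a genotype's 3 replicates (tools per the submitters' processing notes). The sources used here disagree on the number of nuclei and on the sequencer. The deposited signal values are read counts in peaks that the authors divided by DESeq2 size factors. Multiplying back gave whole reads for 100% of values (within 3.08e-06), with 4066720 to 6691161 reads in peaks per aliquot, so that precision is limited at peaks near the median of 62 to 98 reads. The authors' columns of fold changes and p-values were not used, and no column of samples was left unused. The members, gene lists and tests were chosen with earlier results of these data known. Of the gene names, 17 had turned into dates.

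Log2(normalized reads + 1) was tested with lmFit and eBayes of limma 3.58.1, AKO against flox, over all peaks and over reads summed per gene, adjusted by Benjamini-Hochberg, at a threshold of 0.1. The recovered reads were tested by edgeR 4.0.16 (quasi-likelihood) and DESeq2 1.42.0 in R 4.3.3. SE values are those of limma over 3 aliquots per genotype. An exact test of 3 against 3 cannot go below 0.1. Scripts were tested on simulated data. Some genes and a sequence are not reported here. Peaks carry the gene names of the deposited table, and positions follow mm10 with GENCODE genes for 38434 of the peaks. Named genes were, in each direction, the 12 concordant genes of largest median and the 5 with most counted peaks, leaving out Ucp1, Cidea, Car3, Ifi27l2a and genes within 300 kb of Adipoq. The lead peak is that of smallest p. Genes named by edgeR-called peaks (Slc25a10, Zfp985, Lmf1, Mgll and Scarb1) were added after values were seen. Replicate numbers did not pair the aliquots (correlations of deviations -0.0387 to -0.0566), so no block was used. Alternatives covered normalization, test, filters, pseudocount, covariates, assignment of peaks and left-out aliquots. Brown fat was set beside it without a test. Python 3.11.15, pandas 2.3.3, pysam 0.24.0 and matplotlib 3.10.9 served for tables, sequences and plots.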

Additional observations from a re-analysis of the deposited data

Results flagged for a closer look

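The lead peak of Tuba8, in its intron 1, differed in direction between the tissues without overlap in either. In inguinal fat it held 25.7, 25.6 and 18.9 normalized reads in flox and 34.6, 43.4 and 39.6 in AKO (log2 difference 0.73, not called by edgeR, adjusted p = 0.193). In brown fat the overlapping peak held 608, 525 and 560.1 in flox and 517, 456 and 427 in AKO (log2 difference -0.28). It was picked up because the genotypes did not overlap in either tissue and differed in opposite directions. Of all peaks, 10.6% were higher in AKO without overlap in inguinal fat and 8.84% were lower without overlap in brown fat. The difference between the tissues was not tested.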

How the results depend on the processing

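No peak and no gene sum passed limma's threshold in the reported fit, against 2934 lower and 3009 higher peaks at an unadjusted p under 0.05. Peaks called lower and higher were 996 and 850 with edgeR, 225 and 195 with DESeq2, 792 and 648 with limma-trend and 134 and 180 when peaks averaging under 50 normalized reads were left out. Gene sums called lower and higher were 547 and 470 with edgeR, 184 and 180 with DESeq2, 505 and 419 with limma-trend, 25 and 29 without genes averaging under 50, 46 and 36 with a pseudocount of 10, 1 and 1 with the GC correction, 38 and 26 from peaks within 50 kb of the start, 10 and 8 from peaks outside 1 kb of it, and 0 to 3 lower with 1 aliquot left out.

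The 23 falling and 29 rising concordant genes became 12 and 12 within 50 kb, 9 and 18 without peaks averaging under 50, 123 and 140 with at least 2 counted peaks, 1 and 3 with at least 5, 9 and 11 with all peaks of 1 sign, and 0 and 0 with PC1 as a covariate. With the replicate number as a block they were 14 and 19, although the numbers did not pair the aliquots. DESeq2 gave 12 falling genes and the GC correction 19 rising ones. With adjusted calls, a choice made after seeing the data, they were 3 and 4 by edgeR, 2 and 3 by limma-trend and 1 and 1 by DESeq2. Leaving out each aliquot gave 14 to 40 falling and 18 to 39 rising genes, 231 to 1686 and 144 to 1362 edgeR peaks, and 143 to 1067 and 118 to 904 edgeR gene sums, with the highest counts without flox aliquot 2 and the lowest without flox aliquot 1. The cause was not tested.

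Among the values of named genes, 540 moved by less than their spread or kept their side, 78 moved and 9 changed sign. All 9 changed sign with PC1 as a covariate, which separates the genotypes and leaves little to test: the log2 values became 0.34 for Klrb1b, 1.14 for Il1rl2, -0.20 for Dysf, -1.62 for C77080, -1.26 for Kif26a, -1.71 for Nav2, -1.10 for Stpg4, -0.39 for Zc3h12a and -0.18 for Mgll. Depth limits peaks near the median of 62 to 98 reads, and with 1 pool per genotype no value here measures the spread between mice.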

Other observations

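By summed reads, several genes without 3 counted peaks moved as far as the named ones. They were chosen after their values were seen, from the sums called by both edgeR and DESeq2, which were 184 lower and 180 higher over all genes. Each kept its edgeR call whichever aliquot was left out. Wdr75, which acts in the processing of ribosomal RNA, was lower at all 6 peaks, with 569, 610.4 and 535 normalized reads in flox and 418, 362 and 419 in AKO (log2 difference -0.52 ± 0.10; edgeR adjusted p = 0.000122). Only its start-site peak was called (edgeR adjusted p = 0.00114), and its other peaks lie upstream. Trdmt1, a methyltransferase for transfer RNA, had 662, 587 and 634 in flox and 443, 458 and 463 in AKO (-0.46 ± 0.08; edgeR adjusted p = 0.00018). Its peak at -13857 bases from the start was called (edgeR adjusted p = 7.32e-05), while its start-site peak was not (edgeR adjusted p = 0.188). Both sums were lower in every AKO aliquot than in any flox aliquot. Ccdc80, a secreted protein of adipose tissue, had 773, 597 and 734 in flox and 529, 521 and 491 in AKO (-0.44 ± 0.12; edgeR adjusted p = 0.000348). S1pr1, the receptor for sphingosine-1-phosphate that lets lymphocytes leave tissues, had 209.6, 230.1 and 253 in flox and 174, 149.6 and 141 in AKO (-0.57 ± 0.12; edgeR adjusted p = 0.00593). Apbb1ip, an adaptor of integrin activation in leukocytes, had 343, 386 and 320.2 in flox and 263, 243 and 248 in AKO (-0.47 ± 0.10; edgeR adjusted p = 0.00547). The peaks assigned to Prss2 lie in the T-cell receptor beta locus, where 1 overlaps Trbv31, and they summed to 54.2, 71.2 and 65.4 in flox and 23.1, 32.0 and 19.2 in AKO (-1.35 ± 0.19; edgeR adjusted p = 0.00289). Higher in AKO was 1 of the 8 peaks of Ccdc80, 1 of the 4 of S1pr1 and 1 of the 3 of Prss2.

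Among genes that were higher, Aifm2 codes for FSP1, which protects lipids from peroxidation, and its 4 peaks summed to 485, 475 and 448 in flox and 616, 670.2 and 584 in AKO (0.41 ± 0.09; edgeR adjusted p = 0.00122). Rasl12, a small GTPase, had 220.3, 228 and 257 in flox and 358, 402 and 289.8 in AKO (0.56 ± 0.14; edgeR adjusted p = 0.00109). F11r, a junctional adhesion molecule, had 119, 139 and 154 in flox and 184, 224 and 247 in AKO (0.66 ± 0.14; edgeR adjusted p = 0.00177). All peaks of these 3 genes were higher in AKO.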
